A study of Mus musculus with 14 samples.

Results

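Translation initiation and elongation factors are the proteins that load the small ribosomal subunit, the initiator tRNA and the mRNA into one complex and then drive the ribosome along the coding sequence. They were taken here as all genes of a mouse liver series whose platform symbol starts with Eif1 to Eif6 or Eef, without the eIF2 kinases (Eif2ak), the eIF4E-binding proteins (Eif4ebp) and Eif2s3y, and each gene was read from its brightest probe set, the one with the highest mean log2 intensity over the arrays. That gave 52 genes of the 18193 named on the array. Of these, 49 passed a filter on low values that left 12085 genes to test. The series holds 14 liver samples with 1 Affymetrix 3′ array each. They comprise 4 lsPERK livers taken 6 h after 1 mg/kg tunicamycin, 3 lsPERK control livers given 0.3% DMSO, 4 wild-type (WT) livers taken 6 h after 1 mg/kg tunicamycin and 3 WT control livers given 0.3% DMSO. The lsPERK genotype is the knock-out of the series. Its allele, the driver of the deletion, strain, age and the time between DMSO and collection were not given in the sources used here, so a difference in collection time between treated and control livers cannot be told apart from the drug. Nothing in the labels states whether replicates are different animals, and p-values then measure only the spread between these samples.

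PERK, the product of Eif2ak3, is a kinase of the endoplasmic reticulum (ER). When unfolded proteins accumulate, as under tunicamycin, which blocks N-linked glycosylation, PERK phosphorylates the α subunit of eIF2. Phosphorylated eIF2 traps its exchange factor eIF2B, so that less initiator tRNA reaches the ribosome and most translation slows, while the mRNA of the transcription factor ATF4 is translated more. eIF3 is the scaffold that holds the small ribosomal subunit and the mRNA together, and the eIF4 group binds the mRNA cap, unwinds the leader and links it to the poly(A) tail. eEF1 delivers aminoacyl-tRNA and eEF2 moves the ribosome on. In liver these factors serve a tissue that makes most plasma proteins. The arrays measure the mRNA of the factors, not their phosphorylation or the rate of translation.

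All levels below are log2 of the deposited intensity after quantile normalization, and a difference of 1 is a doubling of the intensity. Levels are compared only within a probe set. A gene is called when its adjusted p (limma, Benjamini-Hochberg over the 12085 genes) is under 0.05. Correlations over the genes tested were r = 0.94 to 0.98 within groups and r = 0.88 to 0.97 between groups. The targeted gene Eif2ak3 read 8.30, 8.24, 7.90 and 8.10 in lsPERK tunicamycin livers and 7.30, 7.09 and 6.98 in lsPERK control livers. It read 10.79, 11.24, 10.75 and 10.78 in WT tunicamycin livers and 7.91, 8.79 and 8.50 in WT control livers. Every lsPERK array lay below the WT arrays of the same treatment, although the control comparison was not called (log2 -1.27, adjusted p = 0.309). Which part of Eif2ak3 is deleted and whether the probes lie in it were not given in the sources used here. The 10 hepatocyte markers summed to a normalized intensity of 147800 to 159598 over all arrays. Of these, 0 were called higher and 1 lower (Ass1, log2 -1.25) in lsPERK livers under tunicamycin, and 1 higher (Tat, 0.88) and 1 lower (Apob, -0.19) in WT livers, and the difference was called for Ass1 and Tat (-1.46 and -0.83). The 10 Kupffer cell and macrophage markers summed to 8523 to 13025 in lsPERK tunicamycin livers, 8055 to 24203 in lsPERK control livers, 5127 to 16559 in WT tunicamycin livers and 8774 to 24945 in WT control livers, with 0 called in lsPERK livers (median log2 change -0.55) and 1, Cd5l, called lower in WT livers (median -0.70). The 7 stellate cell and fibroblast markers summed to 10029 to 13669 in lsPERK tunicamycin livers, 10823 to 12517 in lsPERK control livers, 8314 to 11521 in WT tunicamycin livers and 9853 to 14475 in WT control livers. Of these 0 were called in lsPERK livers (median 0.04) and 2, Reln and Col3a1, were called lower in WT livers (median -0.37), and all 7 differences were positive (0.15 to 0.68), with that of Reln called. Of 8 endothelial markers 0 were called in lsPERK livers (median -0.13) and 2, Stab2 and Kdr, were called lower in WT livers (median 0.03). The 6 lymphocyte and 4 neutrophil markers had no call, with medians of -0.81 and -0.97 in lsPERK livers and -0.67 and -0.69 in WT livers. Of 3 cholangiocyte markers 1, Sox9, was called higher in lsPERK livers (median 1.44) and 0 were in WT livers (median 0.56). Beside these counts, 8.42% of all genes tested were called higher and 7.27% lower in lsPERK livers, and 20.7% and 26% in WT livers. The difference was called positive for 10.2% and negative for 9.67% of all genes. The part of these cell types in the results below was not tested. In whole liver fewer cells of a type and less RNA per cell cannot be told apart.

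Under tunicamycin both genotypes carried more mRNA for parts of the initiation machinery, lsPERK livers for fewer members than WT livers. The lsPERK calls depended on the normalization. In lsPERK livers 11 of the 49 factors tested were called higher and 1 lower, against 8.42% of all genes tested called higher, 7.27% lower and 15.7% in either direction. In WT livers 24 were called higher and 1 lower, against 20.7% higher, 26% lower and 46.7% in either direction. The members' median change was log2 0.12 in lsPERK livers, where the median over all genes was -0.02, and 0.25 in WT livers, where it was -0.13. The largest WT rises were those of Eif1a, Eif3a, Eef1e1, Eef1aknmt and Eif3d. On the intensities as deposited, without quantile normalization, 1 member was called higher (Eif1a) and 1 lower (Eif4b) in lsPERK livers and 30 higher and 0 lower in WT livers. There 5.78% of all genes were called in either direction in lsPERK livers and 35.9% in WT livers, and the medians over all genes were -0.07 and 0.30. Without lsPERK control replicate 2 the lsPERK count fell to 5.

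**Figure D1:**
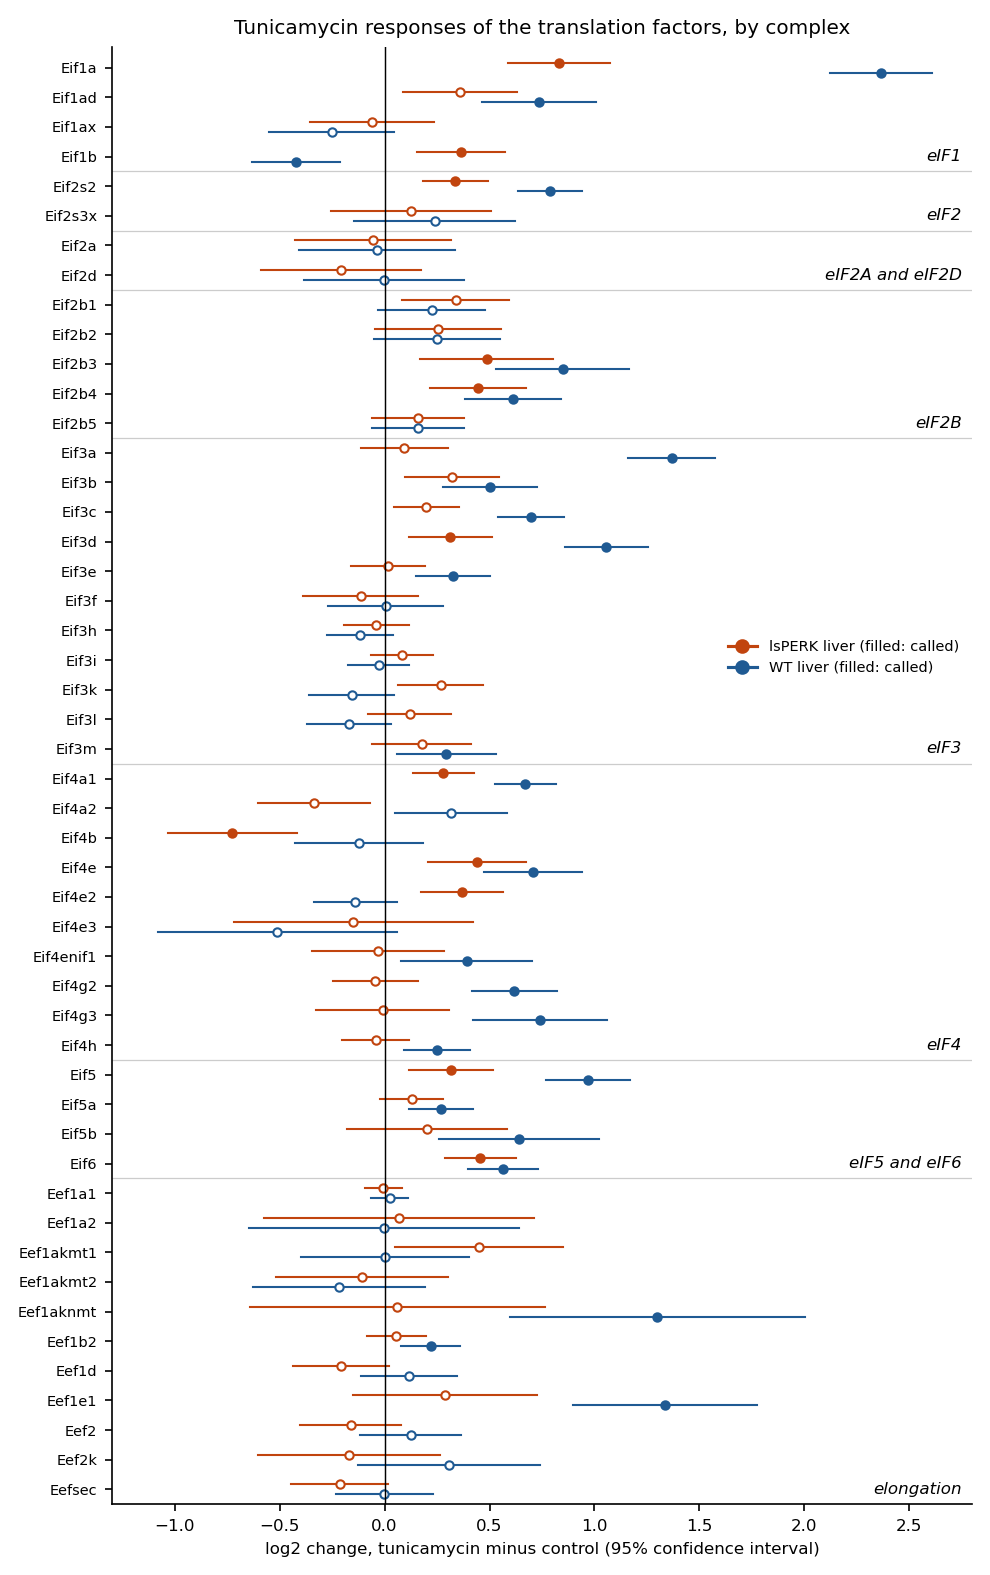
Log2 change under tunicamycin (tunicamycin minus control, horizontal axis) of the 49 factors tested, grouped by complex, in lsPERK livers (orange, upper point of each pair) and WT livers (blue, lower point). Lines are 95% confidence intervals and filled points are called; 11 lsPERK points are filled on the higher side and 1 on the lower side, against 24 and 1 of the WT points, the last being Eif1b, whose WT change was 0.15 on the intensities as deposited.

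Without the drug no member separated the genotypes by the test. Between lsPERK control and WT control livers limma called 0 of the 49 members and 0% of all genes (lowest adjusted p of a member 0.992). At an unadjusted p under 0.05 there were 2 members, Eif3b (log2 0.28, 95% interval 0.05 to 0.52) and Eif4g2 (0.24, 0.03 to 0.46), and 512 genes in all. Under tunicamycin 22 members were called between lsPERK and WT livers, 4 of them higher in lsPERK (Eif1b, Eif3k, Eif3l and Eif4e2) and 18 lower, against 18.5% higher, 16.8% lower and 35.3% in either direction over all genes. On the deposited intensities that split was 1 higher and 17 lower, where 22% of all genes were called in either direction. The median over all genes was -0.11 there, against 0.05 after quantile normalization. The lsPERK change under tunicamycin minus the WT change, called the difference here, was tested directly as an interaction term. It was called for 15 members, 3 positive and 12 negative, against 10.2% positive, 9.67% negative and 19.9% in either direction over all genes. On the deposited intensities the split was 0 positive and 17 negative, where 15.8% of all genes were called in either direction. The median difference over all genes was -0.41 there, against 0.08 after quantile normalization. Both splits on the deposited intensities thus include a shift of all genes, and shares by direction are not given for them. With median centring of the arrays 7 members were called, 1 positive and 6 negative, where 15.3% of all genes were.

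eIF2 is the GTPase that carries the initiator tRNA, and its β subunit rose in both genotypes. Eif2s2, which encodes that subunit, read 12.43, 12.46, 12.32 and 12.48 in lsPERK tunicamycin livers and 11.99, 12.06 and 12.20 in lsPERK control livers. In WT it read 12.88, 12.98, 12.97 and 13.08 under tunicamycin and 12.19, 12.16 and 12.23 in the controls. The treated arrays lay above the controls in both genotypes, and all 4 lsPERK tunicamycin arrays lay below all 4 WT tunicamycin arrays. The rise was 1.26-fold in lsPERK livers (log2 0.34, SE 0.07, adjusted p = 0.00541) and 1.73-fold in WT livers (log2 0.79, SE 0.07, adjusted p = 1.15e-06), and the difference was called (log2 -0.45, SE 0.10, adjusted p = 0.00703), though not with median centring of the arrays (-0.31, adjusted p = 0.316). The lsPERK rise was not called on the deposited intensities (0.34, adjusted p = 0.112) or with the mean of its kept probe sets (0.25, adjusted p = 0.0723).

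Eif2s3x, on the X chromosome, encodes the γ subunit that binds the tRNA and GTP. It read 12.17, 12.06, 11.73 and 11.69 in lsPERK tunicamycin livers and 11.89, 11.95 and 11.53 in lsPERK control livers, against 11.77, 12.18, 11.61 and 11.51 in WT tunicamycin livers and 11.79, 11.52 and 11.28 in WT control livers. All 4 groups overlapped, and no comparison was called (WT response log2 0.24, SE 0.18, adjusted p = 0.298). None of its 3 probe sets was called in any comparison. The WT change gained a call with the log2 signal of Xist on each array as a covariate (0.27, adjusted p = 0.0196) and with the replicate number as a block (0.32, adjusted p = 0.0314). The α subunit gene Eif2s1, which carries the PERK site, is not analysed here, because no probe set bears its symbol in the annotation used.

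The promoters of both eIF2 genes are shown because they encode subunits of the complex on which PERK acts. They come from RefSeq (GRCm38.p6) and run 5′ to 3′ over 250 bases before and 50 bases after the start site. The Eif2s2 promoter (chr2:154892857-154893156, minus strand) holds none of the 4 motifs searched. In the Eif2s3x promoter (chrX:94212602-94212901, minus strand) capitals mark a C/EBP-ATF element core, TGATGNAA, on the opposite strand, beginning 96 bases before the start site.
Eif2s2: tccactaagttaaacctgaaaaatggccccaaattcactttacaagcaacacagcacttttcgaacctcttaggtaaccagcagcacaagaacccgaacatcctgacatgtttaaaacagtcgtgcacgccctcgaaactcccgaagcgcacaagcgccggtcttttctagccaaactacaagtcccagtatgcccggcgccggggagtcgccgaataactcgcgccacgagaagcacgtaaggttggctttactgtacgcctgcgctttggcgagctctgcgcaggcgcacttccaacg
Eif2s3x: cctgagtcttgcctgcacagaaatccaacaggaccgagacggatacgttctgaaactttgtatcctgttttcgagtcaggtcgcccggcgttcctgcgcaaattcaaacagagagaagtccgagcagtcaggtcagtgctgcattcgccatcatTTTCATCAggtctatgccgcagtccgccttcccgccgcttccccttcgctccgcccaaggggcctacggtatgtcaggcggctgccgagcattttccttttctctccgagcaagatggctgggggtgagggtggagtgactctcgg

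eIF2B, the exchange factor that recharges eIF2 with GTP, has 5 subunits and all were tested. Eif2b3 and Eif2b4 were called higher in both genotypes, and the other 3 were called in neither. Of all genes 8.42% were called higher in lsPERK livers and 20.7% in WT livers. Every one of the 5 fitted changes was positive in both genotypes. No difference between the responses was called for any of them, where 19.9% of all genes were called in either direction. Eif2b3, the γ subunit of the catalytic part, read 9.51, 9.46, 9.63 and 9.63 in lsPERK tunicamycin livers and 9.11, 8.77 and 9.34 in lsPERK control livers. In WT it read 9.87, 10.17, 9.94 and 9.94 under tunicamycin and 8.83, 9.25 and 9.32 in the controls. Treated arrays lay above the controls in both genotypes, and the lsPERK tunicamycin arrays lay below the WT ones. It rose by log2 0.49 (SE 0.15, adjusted p = 0.0394) in lsPERK livers and by 0.85 (SE 0.15, adjusted p = 0.000339) in WT livers. Under tunicamycin it was lower in lsPERK than in WT livers (log2 -0.42, SE 0.14, adjusted p = 0.0274).

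Eif2b4, the δ subunit of the regulatory part that senses phosphorylated eIF2, read 10.98, 10.94, 11.05 and 11.02 in lsPERK tunicamycin livers and 10.54, 10.30 and 10.81 in lsPERK control livers, against 11.07, 11.17, 10.96 and 11.09 in WT tunicamycin livers and 10.39, 10.44 and 10.54 in WT control livers. Treated and control arrays did not overlap in either genotype, whereas the treated arrays of both genotypes did. The rise was 1.36-fold in lsPERK livers (log2 0.45, SE 0.11, adjusted p = 0.0122) and 1.53-fold in WT livers (log2 0.61, SE 0.11, adjusted p = 0.000342). The 95% interval of the difference ran from -0.49 to 0.16.

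The regulatory subunit genes Eif2b1 (α) and Eif2b2 (β) and the catalytic subunit gene Eif2b5 (ε) were called in neither genotype. Eif2b1 read 10.03, 10.07, 10.19 and 10.24 in lsPERK tunicamycin livers and 9.81, 9.55 and 10.02 in lsPERK control livers, against 10.20, 10.14, 10.06 and 10.33 in WT tunicamycin livers and 9.81, 10.03 and 10.03 in WT control livers. Its treated arrays lay above the controls in both genotypes without a call (log2 0.34 and 0.22, adjusted p = 0.0702 and 0.137 in lsPERK and WT). Eif2b2 read 10.09, 10.21, 10.26 and 10.30 in lsPERK tunicamycin livers and 9.94, 9.59 and 10.34 in lsPERK control livers, against 10.36, 10.36, 10.33 and 10.29 in WT tunicamycin livers and 9.99, 10.25 and 10.02 in WT control livers. In WT its treated arrays lay above the controls, and in lsPERK they overlapped. Eif2b5, the subunit that performs the exchange, read 9.58, 9.63, 9.35 and 9.54 in lsPERK tunicamycin livers and 9.34, 9.33 and 9.44 in lsPERK control livers, against 9.56, 9.38, 9.43 and 9.36 in WT tunicamycin livers and 9.24, 9.40 and 9.18 in WT control livers. Its groups overlapped in both genotypes, and both fitted changes were log2 0.16. On the deposited intensities Eif2b1, Eif2b2 and Eif2b5 were called higher in WT livers as well, with changes of 0.76, 0.78 and 0.73 where the median over all genes was 0.30, and with median centring the changes were 0.48, 0.49 and 0.44, also called. In lsPERK livers Eif2b1 was called with median centring (0.47, adjusted p = 0.0475) and with 3 other settings, and the calls of Eif2b3 and Eif2b4 were lost on the deposited intensities (0.47 each, adjusted p = 0.216 and 0.124). That of Eif2b3 was also lost without the filter on low values, without the intensity trend in the moderation, with the ratio of 3′ to 5′ control signals as a covariate and with the replicate block (0.44 to 0.49, adjusted p = 0.0506 to 0.0737). The lsPERK call of Eif2b4 was lost without lsPERK control replicate 2 (0.32, adjusted p = 0.0656). Those of Eif2b3 were lost without any one of the lsPERK tunicamycin arrays, lsPERK control replicate 1 or 2, or WT tunicamycin replicate 3 or 4 (0.33 to 0.52, adjusted p = 0.0513 to 0.197), and its lower level in lsPERK tunicamycin livers without lsPERK tunicamycin replicate 1 or 2 or WT tunicamycin replicate 2 (-0.41 to -0.36, adjusted p = 0.0643 to 0.0759).

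**Figure D2:**
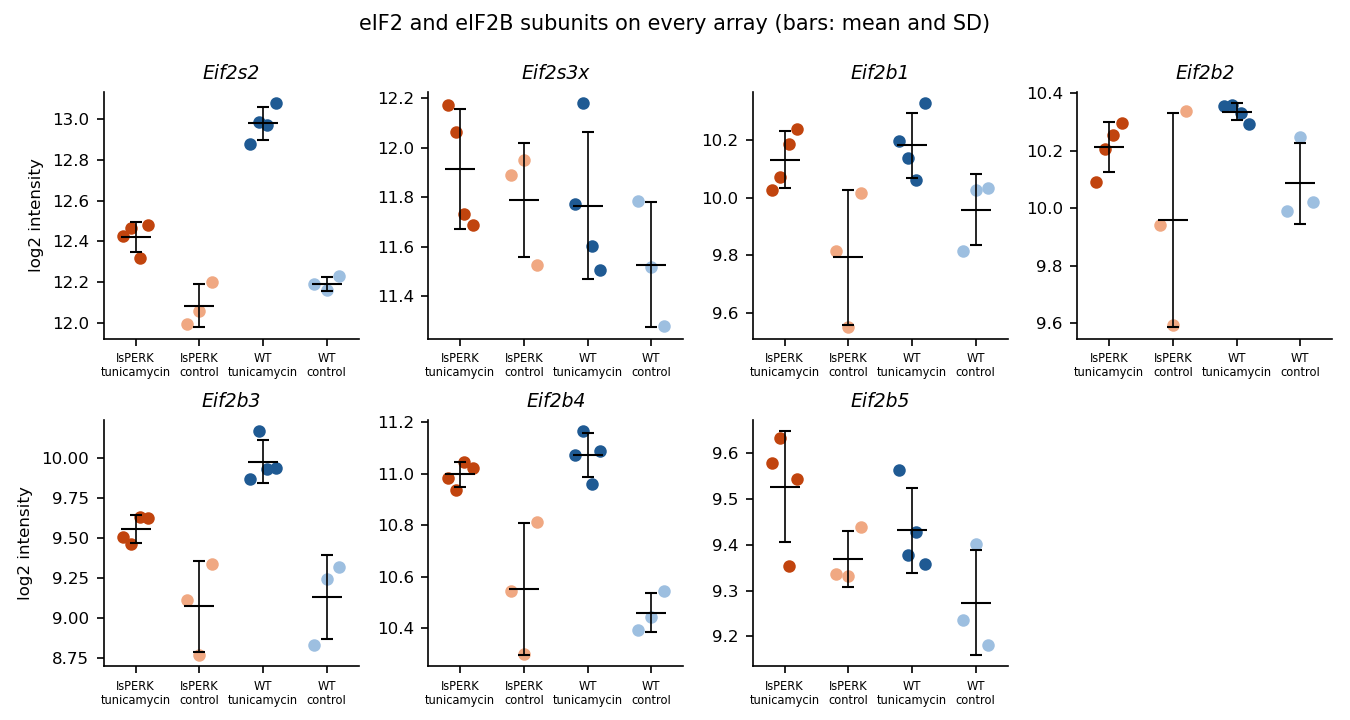
Log2 intensity of the eIF2 and eIF2B subunit genes on each of the 14 arrays (points), by group, with group means and SD (bars); the vertical axes do not start at 0 and differ between genes. Eif2s2 separates all 4 WT tunicamycin arrays (12.88 to 13.08) from every other array, while Eif2b4 under tunicamycin lies at 10.94 to 11.05 in lsPERK and 10.96 to 11.17 in WT livers.

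The eIF1 group, which keeps the scanning ribosome open until the start codon is found, held the largest change of all members and the only member called in opposite directions in the genotypes, Eif1b, whose direction in WT depended on the scaling. Eif1a, the autosomal gene for eIF1A, read 11.29, 11.41, 11.13 and 11.10 in lsPERK tunicamycin livers and 10.61, 10.25 and 10.34 in lsPERK control livers. The WT tunicamycin livers read 12.68, 12.61, 12.49 and 12.47 and the WT controls 10.07, 10.37 and 10.14. Treated arrays lay above the controls in both genotypes, with all lsPERK tunicamycin arrays more than log2 1 below the lowest WT one. The rise was 1.78-fold in lsPERK livers (log2 0.83, SE 0.11, adjusted p = 0.000214) and 5.16-fold in WT livers (log2 2.37, SE 0.11, adjusted p = 3.52e-09). The difference between the responses was log2 -1.53 (SE 0.16, adjusted p = 4.65e-05), the largest in size among the members. Eif1ax, the X-linked gene for the same protein, was not called in any comparison by its brightest probe set: its fitted changes were -0.06 (95% interval -0.36 to 0.24) in lsPERK livers and -0.25 (-0.55 to 0.04) in WT livers.

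Eif1b encodes a close relative of the start-codon factor eIF1. It read 10.04, 10.23, 10.11 and 10.30 in lsPERK tunicamycin livers and 9.80, 9.77 and 9.84 in lsPERK control livers, against 9.31, 9.52, 9.35 and 9.37 in WT tunicamycin livers and 9.69, 9.83 and 9.91 in WT control livers. In lsPERK every treated array lay above every control, and in WT every treated array lay below. It was higher under tunicamycin in lsPERK livers (log2 0.37, SE 0.10, adjusted p = 0.0211) and lower in WT livers (log2 -0.42, SE 0.10, adjusted p = 0.00279), and the difference was called (log2 0.79, SE 0.14, adjusted p = 0.00167). This fall depended on the scaling: on the deposited intensities the WT change was 0.15 (adjusted p = 0.597) and the difference 0.24 (0.61), and with median centring the WT change was -0.14 (0.368). The lsPERK call was lost without lsPERK tunicamycin replicate 2 or 4 or lsPERK control replicate 2 (0.32 to 0.35, adjusted p = 0.0581 to 0.0747) and on the deposited intensities (0.38, adjusted p = 0.305). The Eif1b promoter (chr9:120492356-120492655, plus strand, RefSeq, GRCm38.p6) is shown for this pattern, with an E-box, CACGTG, in capitals 24 bases before the start site.
Eif1b: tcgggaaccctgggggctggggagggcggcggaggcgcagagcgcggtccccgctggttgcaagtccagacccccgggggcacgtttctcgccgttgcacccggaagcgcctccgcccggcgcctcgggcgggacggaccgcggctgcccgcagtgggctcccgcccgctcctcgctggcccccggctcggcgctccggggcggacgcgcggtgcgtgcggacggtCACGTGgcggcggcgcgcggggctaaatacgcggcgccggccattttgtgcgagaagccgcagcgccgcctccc

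Eif1ad, whose product carries an eIF1A-like domain, read 10.11, 9.87, 9.96 and 10.14 in lsPERK tunicamycin livers and 9.91, 9.33 and 9.75 in lsPERK control livers, against 10.31, 10.40, 10.40 and 10.43 in WT tunicamycin livers and 9.56, 9.75 and 9.63 in WT control livers. Treated and control arrays overlapped in lsPERK and not in WT. It was not called in lsPERK (log2 0.36, SE 0.13, adjusted p = 0.0734) and rose in WT (log2 0.74, SE 0.13, adjusted p = 0.000292), and the difference was not called (adjusted p = 0.161). It was lower in lsPERK than in WT livers under tunicamycin (-0.36, adjusted p = 0.026), a call lost without lsPERK tunicamycin replicate 2 or 3 or WT tunicamycin replicate 3 or 4 (-0.36 to -0.31, adjusted p = 0.0533 to 0.0795).

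eIF3 subunits differed in their calls. Of its 11 measured subunits 1, Eif3d, was called higher in lsPERK livers, with a median of log2 0.12 over the 11, where 8.42% of all genes were called higher. In WT livers 6 were called higher (Eif3a, Eif3b, Eif3c, Eif3d, Eif3e and Eif3m), with a median of 0.29, where 20.7% of all genes were. Eif3f, Eif3h, Eif3i, Eif3k and Eif3l were called in neither response, although a further probe set of Eif3i was called higher in WT livers (log2 0.23). The difference between the responses was called for Eif3a, Eif3c and Eif3d, all negative, and for Eif3k, positive here and -0.02 on the deposited intensities. Of all genes 9.67% had a called negative difference and 10.2% a called positive one.

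Eif3a, the core scaffold subunit, read 11.42, 11.46, 11.32 and 11.33 in lsPERK tunicamycin livers and 11.14, 11.35 and 11.38 in lsPERK control livers. In WT livers it read 12.66, 12.44, 12.65 and 12.32 under tunicamycin and 11.22, 11.15 and 11.08 in the controls. The WT tunicamycin arrays stood apart from all others, and the treated and control lsPERK arrays overlapped. In lsPERK the change was 0.09 (95% interval -0.11 to 0.30). The rise in WT was 2.58-fold (log2 1.37, SE 0.10, adjusted p = 1.24e-07), and the difference was -1.28 (SE 0.14, adjusted p = 5.63e-05). Of the 4 probe sets of Eif3a, 0 were called in lsPERK livers (log2 0.06 to 0.69) and all 4 were called higher in WT livers (1.37 to 2.05), and all 4 gave a called negative difference. In the Eif3a promoter (chr19:60790644-60790943, minus strand, RefSeq, GRCm38.p6), shown for this change, capitals mark a UPRE, TGACGTGG, on the opposite strand 97 bases before the start site and an E-box 22 bases after it.
Eif3a: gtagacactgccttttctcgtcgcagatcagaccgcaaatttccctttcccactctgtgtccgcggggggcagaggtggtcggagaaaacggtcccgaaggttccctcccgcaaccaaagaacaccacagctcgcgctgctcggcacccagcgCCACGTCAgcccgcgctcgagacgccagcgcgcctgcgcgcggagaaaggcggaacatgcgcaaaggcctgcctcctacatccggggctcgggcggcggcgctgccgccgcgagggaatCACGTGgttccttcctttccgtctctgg

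Eif3d, the subunit that can bind the mRNA cap, read 11.76, 11.78, 11.75 and 11.60 in lsPERK tunicamycin livers and 11.26, 11.40 and 11.56 in lsPERK control livers, against 12.35, 12.52, 12.28 and 12.49 in WT tunicamycin livers and 11.47, 11.33 and 11.25 in WT control livers. Treated arrays lay above controls in both genotypes. The rise was 1.24-fold in lsPERK livers (log2 0.31, SE 0.09, adjusted p = 0.0338) and 2.08-fold in WT livers (log2 1.06, SE 0.09, adjusted p = 8.63e-07), and the difference was -0.74 (adjusted p = 0.0017). The lsPERK call was lost without lsPERK tunicamycin replicate 1, 2 or 3 or lsPERK control replicate 1 or 2 (0.24 to 0.31, adjusted p = 0.0718 to 0.132) and on the deposited intensities (0.32, adjusted p = 0.32).

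Eif3c, another core subunit, read 12.24, 12.23, 12.19 and 12.21 in lsPERK tunicamycin livers and 11.998, 11.97 and 12.09 in lsPERK control livers, against 12.61, 12.91, 12.69 and 12.75 in WT tunicamycin livers and 12.09, 11.99 and 12.03 in WT control livers. The groups did not overlap in either genotype, yet only the WT change was called (lsPERK log2 0.20, SE 0.07, adjusted p = 0.0845; WT log2 0.70, SE 0.07, adjusted p = 3.94e-06). The difference was -0.50 (adjusted p = 0.00431), and -0.37 (0.141) with median centring. Of its 4 probe sets 1 was called higher in lsPERK livers (0.72) and all 4 in WT livers (0.61 to 1.18).

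Among the other eIF3 subunits, Eif3b, a core subunit, had a change of log2 0.32 (adjusted p = 0.0528) in lsPERK livers and rose in WT livers (log2 0.50, SE 0.10, adjusted p = 0.00131). It read 10.93 to 11.23 in lsPERK tunicamycin livers and 10.69 to 10.86 in lsPERK control livers, against 10.78 to 11.15 in WT tunicamycin livers and 10.46 to 10.54 in WT control livers. Eif3e had a change of 0.02 in lsPERK livers (95% interval -0.16 to 0.19) and rose in WT livers by 0.33 (adjusted p = 0.00486). Eif3m was called in WT (0.29, adjusted p = 0.0402), but lost the call without WT tunicamycin replicate 1, 2, 3 or 4, WT control replicate 1 or 3, or lsPERK tunicamycin replicate 1 or 3 (0.23 to 0.32, adjusted p = 0.0508 to 0.151). Its other probe set gave log2 -0.66. Eif3k and Eif3l, which sit together at the edge of the complex, were higher in lsPERK than in WT livers under tunicamycin (0.26 and 0.32, adjusted p = 0.0314 and 0.0102), and neither call held on the deposited intensities (0.08 and 0.15) or with median centring (0.16 and 0.23). The Eif3k call was also lost without any 1 of the lsPERK tunicamycin arrays or WT tunicamycin replicate 1 or 3 (0.23 to 0.27, adjusted p = 0.0565 to 0.0808). Its difference between responses, 0.42 (adjusted p = 0.0372), was lost without any of the lsPERK tunicamycin arrays, lsPERK control replicate 2, WT tunicamycin replicate 1 or 3, or WT control replicate 1 or 3 (0.33 to 0.43, adjusted p = 0.0557 to 0.0961).

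The eIF4 group, which binds the cap and unwinds the leader, held members called in each direction in lsPERK livers and in 1 direction in WT livers. Its fitted changes were 3 positive and 7 negative in lsPERK livers and 7 positive and 3 negative in WT livers. Of 10 members tested, 3 were called higher in lsPERK (Eif4a1, Eif4e and Eif4e2) and 1 lower (Eif4b), with a median of log2 -0.04, where 8.42% of all genes were called higher and 7.27% lower. In WT 6 were called higher (Eif4a1, Eif4e, Eif4enif1, Eif4g2, Eif4g3 and Eif4h) and 0 lower, with a median of 0.35, where 20.7% and 26% of all genes were. The difference was called for 6 of the 10, negative for Eif4a1, Eif4a2, Eif4b, Eif4g2 and Eif4g3 and positive for Eif4e2, where it was -0.01 on the deposited intensities. Over all genes 9.67% had a called negative difference and 10.2% a called positive one.

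Eif4a1, the helicase of the cap complex, read 13.000, 12.94, 12.92 and 12.86 in lsPERK tunicamycin livers and 12.61, 12.66 and 12.68 in lsPERK control livers, against 13.23, 13.40, 13.31 and 13.17 in WT tunicamycin livers and 12.58, 12.70 and 12.54 in WT control livers. The 4 groups formed 3 levels, with both controls together, lsPERK tunicamycin above them and WT tunicamycin highest. It rose by log2 0.28 (SE 0.07, adjusted p = 0.0127) in lsPERK livers and by 0.67 (SE 0.07, adjusted p = 3.02e-06) in WT livers. The difference was -0.39 (adjusted p = 0.0117), and -0.21 (0.502) with median centring. The lsPERK rise was not called on the deposited intensities (0.28, adjusted p = 0.281) or with median centring (0.40, adjusted p = 0.0569). Its other 2 probe sets were called higher in WT (0.50 and 0.77) and in no other comparison.

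Eif4e, the cap-binding protein, read 11.33, 11.23, 11.14 and 11.43 in lsPERK tunicamycin livers and 10.80, 10.66 and 11.05 in lsPERK control livers, against 11.47, 11.61, 11.59 and 11.53 in WT tunicamycin livers and 10.65, 10.94 and 10.94 in WT control livers. It rose in both genotypes, 1.36-fold in lsPERK livers (log2 0.44, SE 0.11, adjusted p = 0.0143) and 1.63-fold in WT livers (log2 0.71, SE 0.11, adjusted p = 0.000124), and the difference of -0.27 was not called (95% interval -0.60 to 0.07). Without lsPERK control replicate 2 the lsPERK change was 0.35 (adjusted p = 0.0799), and on the deposited intensities it was 0.46 (adjusted p = 0.0981).

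Eif4g2 encodes a relative of the eIF4G scaffold that does not bind eIF4E. It read 13.14, 13.06, 13.20 and 12.96 in lsPERK tunicamycin livers and 13.08, 13.28 and 13.04 in lsPERK control livers, against 13.59, 13.69, 13.43 and 13.33 in WT tunicamycin livers and 12.83, 13.02 and 12.83 in WT control livers. The WT arrays separated by treatment and the lsPERK arrays overlapped. The change was -0.04 in lsPERK livers (95% interval -0.25 to 0.16) and 0.62 in WT livers (SE 0.09, adjusted p = 0.00011), with a called difference (log2 -0.66, SE 0.13, adjusted p = 0.00376) that was -0.44 (0.106) with median centring. With the mean of its kept probe sets neither the WT change (0.27, adjusted p = 0.139) nor the difference (-0.28, adjusted p = 0.369) was called. That mean takes in a set at a low level of 6.03, whose WT change was an uncalled -0.53. Eif4g3, a scaffold of the eIF4G family, gave the same order, -0.01 in lsPERK livers and 0.74 in WT livers (difference -0.75, adjusted p = 0.0223). Its difference was lost without lsPERK control replicate 3 or WT control replicate 1 (-0.60 and -0.66, adjusted p = 0.0538 and 0.0575). With the mean of its kept probe sets neither the WT change (0.43, adjusted p = 0.0874) nor the difference (-0.45, adjusted p = 0.287) was called. The further sets of Eif4g3 lay at low mean levels of 6.12 and 5.17.

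Eif4b, which stimulates the helicase, fell in lsPERK livers. It read 10.93 to 11.27 in lsPERK tunicamycin livers and 11.46 to 12.03 in lsPERK control livers, against 11.56 to 11.78 in WT tunicamycin livers and 11.52 to 11.98 in WT control livers. The lsPERK tunicamycin arrays lay below the lsPERK controls and below the WT tunicamycin arrays. The fall was log2 -0.73 in lsPERK livers (SE 0.14, adjusted p = 0.00337), against -0.12 in WT livers (adjusted p = 0.511). All 3 of its probe sets were called lower in lsPERK livers (-1.09 to -0.73) and 0 were called in WT livers (-0.17 to -0.11). The difference of -0.60 was close to the threshold (adjusted p = 0.0495), and in 11 of the 14 fits without 1 array, those without WT control replicate 1, lsPERK control replicate 1 or lsPERK tunicamycin replicate 3 excepted, it was not called (-0.63 to -0.47, adjusted p = 0.0595 to 0.129).

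Eif4a2, the second helicase gene, read 12.39 to 12.92 in lsPERK tunicamycin livers and 12.81 to 13.23 in lsPERK control livers, against 13.50 to 13.54 in WT tunicamycin livers and 13.16 to 13.26 in WT control livers. Neither response was called (-0.34 and 0.32, adjusted p = 0.0866 and 0.0503 in lsPERK and WT), but their difference was (-0.65, adjusted p = 0.0186), though not with median centring (-0.39, 0.282) or without lsPERK control replicate 2 (-0.55, 0.0522). Under tunicamycin it was 1.79-fold lower in lsPERK than in WT livers (log2 -0.84, SE 0.11, adjusted p = 7.63e-05). Eif4e2, a cap-binding relative of eIF4E known as a repressor of translation, rose in lsPERK livers (log2 0.37, SE 0.09, adjusted p = 0.0148), with -0.14 (adjusted p = 0.237) in WT livers and a difference of 0.51 (adjusted p = 0.0146) that was -0.01 on the deposited intensities. The lsPERK call was lost without lsPERK control replicate 2 (0.29, adjusted p = 0.0796) and on the deposited intensities (0.39, adjusted p = 0.296). Eif4h, another helicase cofactor, was called higher in WT (0.25, adjusted p = 0.0118) and lower in lsPERK than in WT livers under tunicamycin (-0.23, adjusted p = 0.0176). Its 4 probe sets ran from -0.31 to 0.25 in the WT response, and its calls were lost without WT control replicate 3 (0.22, adjusted p = 0.0534) and without lsPERK tunicamycin replicate 3 (-0.21, 0.0518). Eif4enif1, which carries eIF4E into the nucleus, was called in WT (0.39, adjusted p = 0.0405) although treated and control arrays overlapped, and lost the call without WT tunicamycin replicate 1, 2 or 3, WT control replicate 2 or 3, or lsPERK tunicamycin replicate 2, 3 or 4 (0.30 to 0.42, adjusted p = 0.0501 to 0.154).

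eIF5 and eIF5B act late in initiation and eIF6 acts on the ribosomal subunits, and eIF5A is grouped with them here by symbol alone. Of the 5 genes, 4 were tested. In lsPERK livers Eif5 and Eif6 were called higher, with a median of log2 0.26 over the 4, where 8.42% of all genes were called higher. In WT livers all 4 were, with a median of 0.60, where 20.7% of all genes were. The difference between the responses was called for Eif5 alone, where 19.9% of all genes were called in either direction.

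Eif5, which triggers GTP hydrolysis by eIF2 at the start codon, read 13.09, 12.88, 12.97 and 12.86 in lsPERK tunicamycin livers and 12.40, 12.73 and 12.78 in lsPERK control livers, against 13.63, 13.71, 13.69 and 13.70 in WT tunicamycin livers and 12.59, 12.70 and 12.86 in WT control livers. The 4 WT tunicamycin arrays lay above all others, and treated lsPERK arrays lay above their controls. The rise was 1.24-fold in lsPERK livers (log2 0.32, SE 0.09, adjusted p = 0.0344) and 1.96-fold in WT livers (log2 0.97, SE 0.09, adjusted p = 1.95e-06), with a difference of -0.66 (adjusted p = 0.00385; -0.44 and 0.204 with median centring). The lsPERK call was lost without lsPERK tunicamycin replicate 1 or 3 or lsPERK control replicate 1 or 2 (0.20 to 0.36, adjusted p = 0.0519 to 0.151), on the deposited intensities (0.32, adjusted p = 0.194) and with median centring (0.44, adjusted p = 0.0839). It was also lost without the filter on low values, without the intensity trend in the moderation and with the mean of its kept probe sets (0.24 to 0.32, adjusted p = 0.062 to 0.0791).

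Eif6, which keeps the ribosomal subunits apart, read 11.26, 11.35, 11.33 and 11.38 in lsPERK tunicamycin livers and 10.86, 10.88 and 10.88 in lsPERK control livers, against 11.37, 11.60, 11.45 and 11.53 in WT tunicamycin livers and 10.83, 10.91 and 11.02 in WT control livers. Treated arrays lay above the controls in both genotypes. It rose by 0.46 (SE 0.08, adjusted p = 0.00132) in lsPERK livers and 0.56 (SE 0.08, adjusted p = 4.98e-05) in WT livers, and the 95% interval of the difference was -0.35 to 0.13. The lsPERK call was lost on the deposited intensities (0.47, adjusted p = 0.112). Its second probe set, at a low mean level of 5.83, gave -0.06 in lsPERK and -0.17 in WT livers and was not called. With the mean of both sets neither response was called (0.20 in each, adjusted p = 0.738 and 0.631). Eif5a, the factor that carries the hypusine residue, read 13.99, 13.89, 13.97 and 13.92 in lsPERK tunicamycin livers and 13.93, 13.86 and 13.65 in lsPERK control livers, against 13.95, 14.05, 13.96 and 13.95 in WT tunicamycin livers and 13.61, 13.84 and 13.68 in WT control livers. Its WT rise was small (log2 0.27, SE 0.07, adjusted p = 0.00638) and was 0.09 (0.637) with median centring. Eif5b, the GTPase that joins the subunits, read 10.27, 10.28, 10.13 and 9.90 in lsPERK tunicamycin livers and 9.66, 10.13 and 10.05 in lsPERK control livers, against 10.56, 10.82, 10.19 and 10.11 in WT tunicamycin livers and 9.99, 9.78 and 9.58 in WT control livers. It had a change of 0.20 (adjusted p = 0.507) in lsPERK livers and rose in WT livers (log2 0.64, SE 0.18, adjusted p = 0.00885), with no called difference (-0.44, adjusted p = 0.257).

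**Figure D3:**
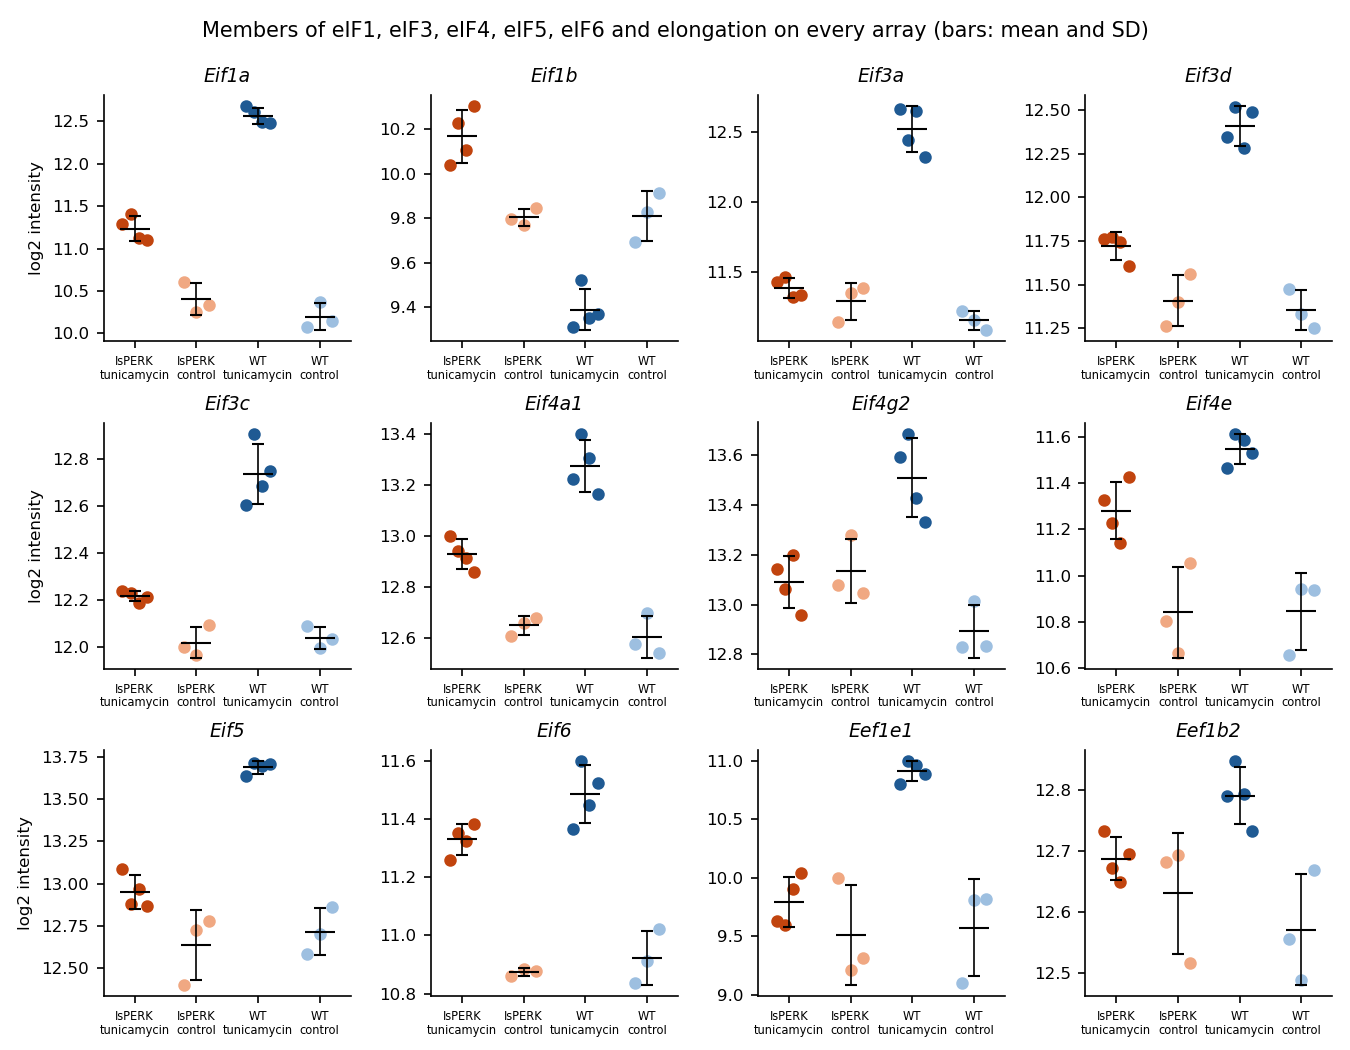
Log2 intensity of 12 factors on each of the 14 arrays (points), by group, with group means and SD (bars); the vertical axes do not start at 0 and differ between genes. The WT tunicamycin arrays are the highest for Eif1a (12.47 to 12.68), Eif3a (12.32 to 12.66) and Eif3d (12.28 to 12.52) and the lowest for Eif1b (9.31 to 9.52, an order that did not hold on the intensities as deposited).

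Of 11 members of the elongation group tested, 0 were called in lsPERK livers (median log2 -0.01), where 15.7% of all genes were called in either direction. In WT livers 3 were called higher (Eef1e1, Eef1aknmt and Eef1b2) and 0 lower (median over the 11 0.11), where 20.7% and 26% of all genes were. The larger of these changes were in a synthetase-complex subunit and a methyltransferase, not in the factors that carry out elongation itself.

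Eef1e1, named as an elongation factor and known as a scaffold subunit of the multi-tRNA synthetase complex, read 9.64, 9.60, 9.91 and 10.04 in lsPERK tunicamycin livers and 9.998, 9.21 and 9.32 in lsPERK control livers, against 10.80, 10.996, 10.96 and 10.89 in WT tunicamycin livers and 9.10, 9.81 and 9.82 in WT control livers. The WT tunicamycin arrays stood above all others, and the other 3 groups overlapped. It had a change of 0.29 (adjusted p = 0.4) in lsPERK livers and rose 2.53-fold in WT livers (log2 1.34, SE 0.20, adjusted p = 0.000112), with a called difference (log2 -1.05, SE 0.29, adjusted p = 0.0208). On the 8 arrays with low signal for Xist, the RNA of the inactive X chromosome, the difference was -0.42. That fit kept lsPERK control replicate 3 as the only array of its group. Eef1aknmt, a methyltransferase that modifies eEF1A, read 5.82, 5.71, 5.80 and 6.53 in lsPERK tunicamycin livers and 5.87, 5.25 and 6.59 in lsPERK control livers, against 6.89, 7.33, 6.64 and 7.68 in WT tunicamycin livers and 5.65, 6.08 and 5.77 in WT control livers. These levels lay near the filter threshold of 5.37. It rose in WT (log2 1.30, SE 0.33, adjusted p = 0.00485), with a difference that was not called (-1.24, adjusted p = 0.0773), and its 2 other probe sets gave uncalled WT changes of 0.37 and 0.07.

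Eef1b2, a subunit of the exchange factor of eEF1A, read 12.73, 12.67, 12.65 and 12.70 in lsPERK tunicamycin livers and 12.68, 12.69 and 12.52 in lsPERK control livers, against 12.79, 12.85, 12.79 and 12.73 in WT tunicamycin livers and 12.56, 12.49 and 12.67 in WT control livers. Its WT rise was small (log2 0.22, SE 0.07, adjusted p = 0.0132), was lost without WT control replicate 2 (0.18, adjusted p = 0.0632) and was 0.17 (0.242) with median centring. Eef1a1, the main elongation factor, had the narrowest intervals of the 49 members, -0.10 to 0.08 in lsPERK and -0.07 to 0.11 in WT livers, at levels (14.13 to 14.22 in lsPERK tunicamycin livers and 14.19 to 14.22 in WT tunicamycin livers) that hardly varied between arrays. Its deposited intensities spanned 16880 to 20055 while the array medians differed by up to log2 0.63, and whether this probe set still responds at that level was not tested. Eef2, the translocase, had changes of -0.16 (-0.40 to 0.08) in lsPERK livers and 0.12 (-0.12 to 0.36) in WT livers, and neither was called. Eefsec, the selenocysteine elongation factor, was lower in lsPERK than in WT livers under tunicamycin (-0.32, adjusted p = 0.0222), a call lost without WT tunicamycin replicate 3 or 4 (-0.29 each, adjusted p = 0.0608 and 0.0626). Eif2a and Eif2d, which deliver initiator tRNA without eIF2, were called in no comparison, with WT changes of -0.04 (-0.41 to 0.33) and -0.0016 (-0.38 to 0.38).

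Set side by side, the responses of both genotypes rest on separate samples. Of the 11 members called higher in lsPERK livers, 9 were among the 24 called higher in WT livers: Eif1a, Eif2s2, Eif2b3, Eif2b4, Eif3d, Eif4a1, Eif4e, Eif5 and Eif6. Of these 9, Eif1a alone kept its lsPERK call on the deposited intensities. The same overlap over all genes is not given here. For 10 of the 24 the difference was called, negative in each (Eif1a, Eif2s2, Eif3a, Eif3c, Eif3d, Eif4a1, Eif4g2, Eif4g3, Eif5 and Eef1e1). Over all genes tested 9.67% had a called negative difference, but the 24 were picked by the WT change, which the difference subtracts. That choice favours negative differences, and the share among all genes called higher in WT livers is not given here. The 2 remaining negative differences were those of Eif4a2 and Eif4b, and the 3 positive ones those of Eif1b, Eif3k and Eif4e2, of which the last 2 were -0.02 and -0.01 on the deposited intensities. By the count of arrays that did not overlap, tunicamycin arrays lay wholly above the controls for 15 members and wholly below for 2 in lsPERK livers, against 13.4% above, 13.8% below and 27.2% in either direction over all genes. In WT livers they did for 26 and 3 members, against 21.6%, 26.6% and 48.2%. Between the controls lsPERK arrays lay wholly above WT arrays for 2 members, Eif3b and Eif4g2, and wholly below for 0, against 2.8%, 4.59% and 7.39%. Under tunicamycin lsPERK arrays lay wholly above WT arrays for 5 members and wholly below for 20, against 18.6%, 17.7% and 36.3%.

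**Figure D4:**
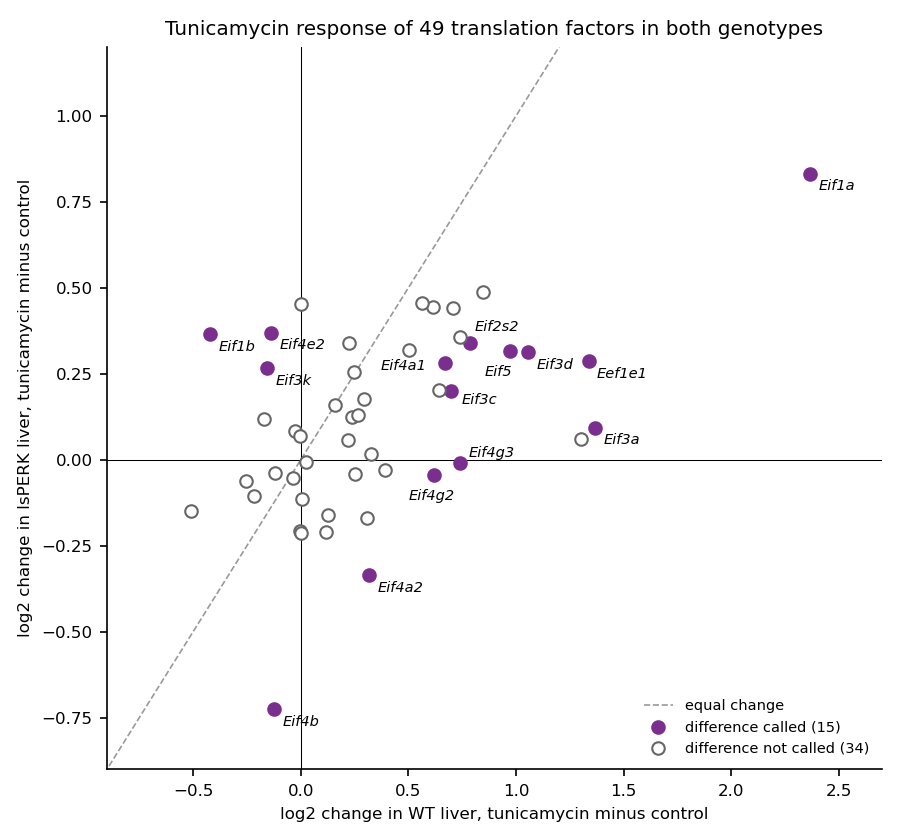
Log2 change under tunicamycin in lsPERK livers (vertical) against that in WT livers (horizontal) for the 49 members tested; filled points are the 15 members whose difference was called and the dashed line marks equal change. Points below the line had a lower signed change in lsPERK than in WT livers, among them Eif4b (-0.73 in lsPERK, -0.12 in WT), Eif1a (0.83 in lsPERK, 2.37 in WT) and Eif3a (0.09 in lsPERK, 1.37 in WT).

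The arrays also differed within groups in Xist, and members were called for it no more often than all genes tested. Xist, the RNA of the inactive X chromosome, read 12.81 to 13.16 on 6 arrays (2 lsPERK tunicamycin, 2 lsPERK control, 1 WT tunicamycin and 1 WT control) and 4.799 to 5.843 on the other 8. In a fit with group and Xist class, Eif2s3x was higher on the 6 arrays (log2 0.44, SE 0.06, adjusted p = 0.000621), at 11.79 to 12.18 against 11.28 to 11.77 on the 8. The X-linked Eif1ax (log2 0.26, SE 0.08, adjusted p = 0.0478) and the autosomal Eif2d (log2 0.37, SE 0.09, adjusted p = 0.0162) and Eif3f (log2 0.28, SE 0.06, adjusted p = 0.0097) also differed, and no other member was called, against 10.9% of all genes. With the log2 Xist signal as a covariate 15 members were called in lsPERK livers, 27 in WT livers and 16 for the difference. A fit on the 8 Xist-low arrays alone, an alternative added after the data were seen, kept lsPERK control replicate 3 as the only array of its group. Counts of calls are therefore not given for it.

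**Figure D5:**
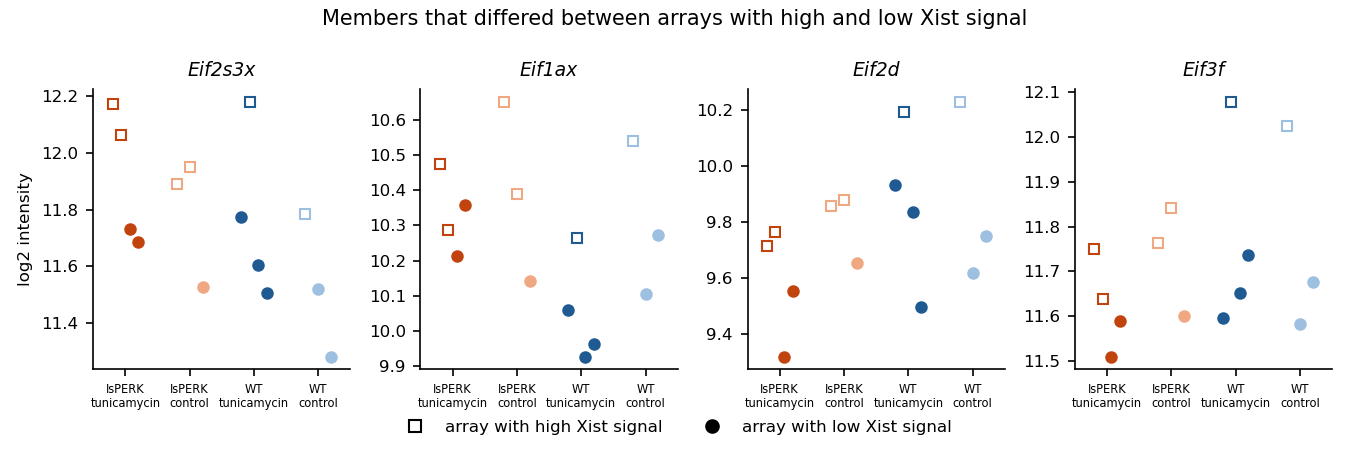
Log2 intensity of 4 members on each of the 14 arrays, by group, with open squares for the 6 arrays with high Xist signal and filled circles for the 8 with low signal; vertical axes do not start at 0. Within every group the squares of Eif2s3x lie above the circles.

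Many members have several probe sets, and these gave a second reading of the same RNA. The 24 genes called higher in WT livers had 39 further probe sets above the filter, spread over 17 of the genes. Of these, 23 were called higher and 0 lower, with p-values adjusted over all 21808 kept probe sets of single genes. The fitted change was negative for 5, which belong to Eif3m, Eif4g2, Eif4h and Eif6. None of these was called, and those of Eif3m, Eif6 and Eif4g2 had low mean levels of 5.25, 5.83 and 6.03. Among the 12 members with a called negative difference, 9 genes had 25 further probe sets, of which 11 were called and 4 were positive. Some members had a further probe set called in WT livers where the brightest one was not. It was called lower for Eif1ax (log2 -0.42, adjusted p = 0.0344) and Eif4e3 (-0.75, adjusted p = 0.0413). It was called higher for Eif3i (0.23, adjusted p = 0.0392) and Eef1d (1.94, adjusted p = 0.0199, at a mean level of 4.23).

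Genes around the factors were counted against the same shares, 8.42% of all genes called higher and 7.27% lower in lsPERK livers and 20.7% and 26% in WT livers. Of 10 scanning helicases and start-site accessory factors, 4 were called higher and 0 lower in lsPERK livers (median log2 0.24), and 7 and 0 in WT livers (median 0.62). Bzw2, a relative of eIF5 that competes with it, was at log2 0.06 in lsPERK livers (adjusted p = 0.795) and rose by 0.98 in WT livers (adjusted p = 1.24e-05). The helicase gene Ddx3x was at 0.11 and 0.78 in lsPERK and WT livers (adjusted p = 0.624 and 0.000162). Of 7 termination and recycling factors 2 were called higher in lsPERK livers (median 0.29) and 4 in WT livers (median 0.35), among them Pelo, which rescues stalled ribosomes, at 1.11 in lsPERK and 1.68 in WT livers (adjusted p = 5.17e-05 and 2.53e-07). The 6 diphthamide synthesis genes, whose product modifies eEF2, held 1 called higher in lsPERK livers (median 0.37) and 4 in WT livers (median 0.52), and 0 called lower.

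Regulators of the cap complex were called in both directions, where the shares over all genes were 8.42% higher and 7.27% lower in lsPERK livers and 20.7% and 26% in WT livers. Of 13 measured, 0 were called higher and 2 lower in lsPERK livers (median log2 -0.12), and 6 higher and 2 lower in WT livers (median 0.18). The eIF4E kinase gene Mknk1 was at -0.33 in lsPERK livers (adjusted p = 0.17) and rose by 1.94 in WT livers (adjusted p = 3.51e-07). The eIF4E-binding protein gene Eif4ebp1 was lower under tunicamycin in lsPERK livers (-0.46, adjusted p = 0.0125) and higher in WT livers (0.73, adjusted p = 0.000106). Among the 3 poly(A)-binding proteins measured, 0 were called in lsPERK livers and 1 higher and 1 lower in WT livers. Of these Pabpc4 was at 0.25 in lsPERK livers (adjusted p = 0.263) and rose by 1.51 in WT livers (adjusted p = 1.22e-06). Of 9 mitochondrial translation factors, 0 were called in lsPERK livers (median 0.22), and 4 were called lower and 1 higher in WT livers (median -0.40). Tufm, the mitochondrial elongation factor, was at 0.27 in lsPERK and -0.40 in WT livers, with a called difference (0.67, adjusted p = 0.0112). Of 10 genes of mTORC1 and S6 kinase, 0 were called higher and 1 lower in lsPERK livers (median 0.06), and 2 higher and 3 lower in WT livers (median -0.25). Of 2 hypusine synthesis genes 0 were called in lsPERK livers and 1 was called higher in WT livers (Dhps, 0.64, adjusted p = 0.000657). The eIF2 phosphatase subunit gene Ppp1r15a rose by 0.64 in lsPERK and 3.39 in WT livers (adjusted p = 0.00335 and 4.55e-10), and of the 6 eIF2 kinase and phosphatase genes 2 were called higher and 1 lower in lsPERK livers (median -0.09), and 2 and 3 in WT livers (median -0.12).

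RefSeq promoters were matched for 42 of the 52 members. An E-box (CACGTG, a motif that reads the same on both strands) was present in 12 of them, against 8.09% of all 27025 genes with a promoter, and in 6 of the 19 matched members called higher in WT livers. The 12 were Eif1b, Eif3a, Eif3f, Eif3k, Eif4a1, Eif4e, Eif4h, Eif5a, Eif5a2, Eef1aknmt, Eef2 and Eef2k. The C/EBP-ATF element core (TGATGNAA) was found in 2, Eif2s3x and Eef2k, against 4.51% of all genes. A CRE (TGACGTCA) was found in 1, Eef2, against 2.03%, and the UPRE (TGACGTGG) in 1, Eif3a, against 0.714%. All motifs were searched on both strands, none of them contains another, and a match of letters is a description of the window only.

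Of the 52 members, Eif4a3, Eif5a2 and Eef2kmt stayed under the filter and were not tested. Their brightest single-gene probe sets read 1.49 to 3.97, 3.34 to 5.27 and 2.10 to 4.48 over the 14 arrays, and in these the tunicamycin and control arrays overlapped except for Eef2kmt in WT livers (3.33 to 4.48 under tunicamycin, 2.45 to 3.26 in controls). A further 7 probe sets that name several genes, among them those of Eif3j1 and Eif3j2 and of Eef1g, were left out. Eif1, Eif2s1, Eif3g and Eif4g1 are not analysed here.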

How the data were processed

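The 14 liver samples were measured on 1 Affymetrix array each, from cRNA made by the 3′ in vitro transcription protocol, per the labels. The deposited values are linear intensities, 1 for each probe set in each sample. GCOS and MAS5 are named by the submitters' processing notes, with no version or scaling target. The files hold no count of reads, so the number of arrays limits the precision. Intensities were taken as log2 after 64 control probe sets were removed, and were quantile normalized. The deposited array medians had differed by up to log2 0.63, and normalization sets them equal, so every change is relative to the other genes. Probe sets above the pooled median (log2 5.37, an intensity of 41.5) on at least 3 arrays were kept. Each of the 12085 genes was read from its brightest kept probe set that names 1 gene. All 4 groups were fitted together in limma 3.58.1 (R 4.3.3) with trend and 10 residual degrees of freedom, and 5 contrasts were tested, each adjusted by Benjamini-Hochberg over all genes at 0.05. The fit was tested on simulated data. Tables and figures used Python 3.11.15, pandas 2.3.3 and matplotlib 3.10.9.

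Alternatives covered the normalization, the filter, the choice of probe set, covariates, the replicate block and leaving out each array. Array values are printed for the subunits of eIF2 and eIF2B by the rule set with the design. In the eIF1, eIF3, eIF4, eIF5 and eIF6, and elongation groups that rule took members with the smallest p in the WT response or in the difference. The members, the gene lists and that rule were chosen with earlier results of these data known. Gene names came from the platform annotation, promoters from RefSeq (GRCm38.p6).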

Additional observations from a re-analysis of the deposited data

Results flagged for a closer look

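Of 98 checks of a treated group's 4 arrays, 4 found 1 array far from the other 3, where chance gives about 5% of checks. The gap to the nearest array as a share of the group's range was 0.833 for Eif3d in lsPERK tunicamycin replicate 4 (11.60, the others 11.75 to 11.78). It was 0.875 for Eef1aknmt in the same array (6.53, the others 5.71 to 5.82). It was 0.845 for Eif3i in WT tunicamycin replicate 4 (12.65, the others 12.45 to 12.48) and 0.893 for Eif5a in WT tunicamycin replicate 2 (14.05, the others 13.95 to 13.96).

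For 15 members the tunicamycin response differed between lsPERK and WT livers by the interaction term of the limma fit, where 19.9% of all genes did. The difference, lsPERK minus WT on the log2 scale, was -1.53 for Eif1a, -1.28 for Eif3a, -1.05 for Eef1e1, -0.751 for Eif4g3 and -0.743 for Eif3d. It was -0.663 for Eif4g2, -0.655 for Eif5, -0.652 for Eif4a2, -0.603 for Eif4b, -0.50 for Eif3c, -0.45 for Eif2s2 and -0.39 for Eif4a1. It was positive for Eif1b (0.787), Eif4e2 (0.508) and Eif3k (0.424), of which Eif4e2 and Eif3k were -0.01 and -0.02 on the intensities as deposited.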

How the results depend on the processing

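The counts of members called (12 in the lsPERK response, 25 in the WT response, 0 between controls, 22 under tunicamycin and 15 for the difference of responses) stayed within 1.5 times of these values under the other settings listed in the processing section, except 2 in the lsPERK response on the deposited intensities, 7 for the difference with median centring, and 5 in the lsPERK response without lsPERK control replicate 2. Without 1 array at a time they ran from 5 to 14, 22 to 27, 0 to 0, 19 to 24 and 13 to 17. In 2 alternatives added after the data were seen, the Xist-low arrays alone gave 3 in the lsPERK response, 23 in the WT response, 14 under tunicamycin and 8 for the difference, and the 6 Xist-high arrays alone gave 2, 16, 13 and 3. These subsets hold fewer arrays. With the replicate number as a block the counts were 10, 25, 0, 23 and 14. Deviations of same-numbered arrays correlated at -0.37 to 0.42 (median 0.24, 13 of 19 pairs over 0.1), against a median of -0.17 for different numbers (23 of 54 over 0.1). The labels give no shared animal, batch or day and not every pair was over 0.1, so the numbers were not taken to pair the samples.

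Among changes called in the fit reported or in the alternative, directions turned on the deposited intensities for the WT change of Eefsec (0.57) and Eif1b (0.15) and for the difference of Eif3k (-0.0201) and Eif4e2 (-0.014). With the mean of kept probe sets the WT change was -0.18 for Eif3m and -0.00518 for Eif4h, and with the brightest probe set lacking a cross-hybridisation suffix it was -0.31 for Eif4h. The cause was not tested. Changes are relative to the scaling, which moves the median of all genes in the WT response from -0.13 to 0.30, and probe sets near background, such as that of Eef1aknmt, limit small differences.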
